A study of Mus musculus with 96 samples.

Results

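The genes described here are 10 contractile protein genes of skeletal muscle whose forms differ between slow and fast fibres. They were chosen by gene name from a list of myosin and troponin genes, and each name matched 1 gene of the count table, so that 10 of 56748 genes are described. The slow members are Myh7, Myl2, Myl3, Tnnt1 and Tnni1, and the fast members are Myh1, Myh2, Myh4, Tnnt3 and Tnni2. RNA-seq read counts were available for 96 libraries of liver, muscle and cerebral cortex from mice fed ad libitum (AL) or kept on intermittent fasting (IF), and the 32 muscle libraries are the ones used below unless another tissue is named. AL males (mice 1 to 8) and IF males (mice 9 to 16) were C57BL/6 mice that started their diets at 6 weeks of age and stayed on them for 4 months, with a 16 h fast each day for IF. AL females (mice 25 to 32) and IF females (mice 33 to 40) are labelled by sex and diet alone, and their strain, age, hours of fasting and months on the diet are not stated. Each of the 4 groups held 8 mice, with 1 library per mouse and tissue. Sex cannot be told apart from the set of mice in which it was studied, and the muscle that was dissected is not named.

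Between 28319147 and 49838004 reads per muscle library were counted on genes, with a median of 36668740. The counts were turned into CPM, the count of a gene divided by the library's total and multiplied by 1000000. In all 32 of 32 muscle libraries the levels of Xist and of Y-linked genes matched the labelled sex. The tissue label was checked against 6 skeletal muscle genes, whose summed level lay between 62857 CPM in IF mouse 12 and 83003 CPM in IF mouse 37, with the skeletal actin gene Acta1 as the most abundant of them. Summed levels of 4 liver genes reached at most 5.32 CPM and those of 4 cortex genes at most 0.921 CPM in muscle.

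In muscle fibres, myosin heavy chains use ATP to pull on actin filaments, and the heavy chain that a fibre makes sets much of its speed of shortening. Myh7 encodes the slow heavy chain of type I fibres, while Myh2, Myh1 and Myh4 encode the heavy chains of fast type IIA, IIX and IIB fibres. Myosin light chains sit on the neck of the heavy chain, and the troponin complex makes contraction depend on calcium, each with slow and fast forms.

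The slow members varied widely between mice of the same group. For Myh7, on the minus strand of chromosome 14 from 55208141 to 55232083 on GRCm39 (ENSMUSG00000053093) and with a length of 8616 bases in the authors' table, AL males had 0.384 CPM at the lowest, 93.7 at the median and 266 at the highest. In IF males, Myh7 had 3.90 CPM at the lowest, 58.9 at the median and 91.9 at the highest. The lowest values were those of AL mouse 8 and IF mouse 9, the next lowest AL male already had 49.9 CPM of Myh7, and the diets overlapped. Mouse 8 had 18 reads of Myh7 in a library of 46889676, the deepest of the AL male muscle libraries. Fewer slow fibres in the piece of muscle and less RNA per fibre cannot be told apart in these bulk samples.

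Myl2 encodes the slow regulatory light chain and Myl3 the slow essential light chain. In AL males Myl2 ranged from 3.73 to 556 CPM with a median of 166, and in IF males from 6.33 to 139 CPM with a median of 98.1. Myl3 ranged from 3.71 to 783 CPM in AL males (median 306) and from 15.2 to 201 CPM in IF males (median 157). For both light chains mouse 8 was the lowest AL male and mouse 9 the lowest IF male, and mouse 5 was the highest AL male. The troponin genes of slow fibres, Tnnt1 for the tropomyosin-binding subunit and Tnni1 for the inhibitory subunit, had the same lowest mice. Tnnt1 lay between 3.56 and 398 CPM in AL males (median 147) and between 7.34 and 137 CPM in IF males (median 83.3). Tnni1 lay between 2.0 and 209 CPM in AL males (median 84.6) and between 3.19 and 81.8 CPM in IF males (median 53.2). In each of these 5 genes all 8 IF males lay below the median of the AL males, and the range of the IF males lay inside that of the AL males. The 5 genes went up and down together, so these are not 5 separate observations, and the share over all genes was not counted.

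Females showed the same wide spread of the slow members, with other mice at the ends. Myh7 had 19.5 CPM at the lowest, 194 at the median and 923 at the highest in AL females, and 0.706, 238 and 901 CPM in IF females. Myl2 had 35.7, 240.1 and 971 CPM at the lowest, median and highest AL female, and 19.0, 298 and 1053 CPM in IF females. Mouse 32 was the lowest AL female and mouse 37 the lowest IF female in both genes, and the highest were mouse 28 and mouse 36. In AL females Myl3 ran from 79.7 through a median of 277 to 1210.4 CPM, and in IF females from 14.7 through 391 to 1310.3 CPM. Tnnt1 ran from 21.7 through 179.6 to 741 CPM in AL females and from 3.61 through 264 to 983 CPM in IF females. For Tnni1 the lowest, median and highest were 14.1, 124 and 583 CPM in AL females and 2.12, 178 and 582 CPM in IF females. Mouse 37 was the lowest IF female in each of the 5 slow members, and the diets overlapped in all 5.

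**Figure D1:**
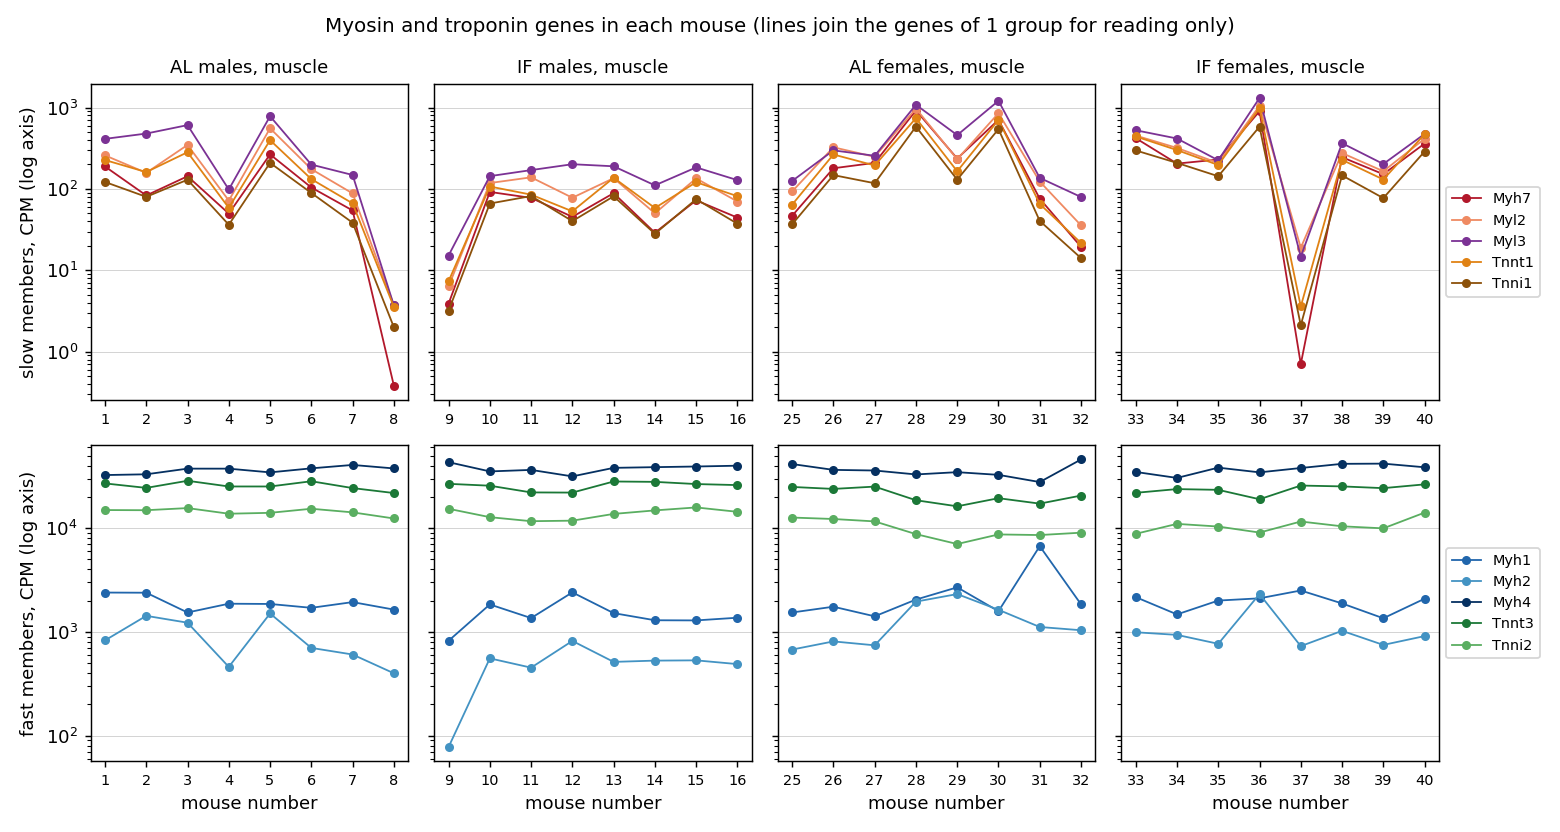
CPM of the 5 slow members (upper panels) and 5 fast members (lower panels) on log axes, 1 point per gene and mouse, with lines that only help to follow a gene across the mice of a group. The slow members drop together in mice 8, 9 and 37, where Myh7 had 0.384, 3.90 and 0.706 CPM, and Myh1 stands out in mouse 31 at 6707 CPM.

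The spread of the slow members was among the widest of all genes. As the standard deviation within groups of log2 CPM scaled by TMM factors, Myh7 had 2.45, which ranked 7 of 12485 genes with a mean of at least 1 CPM. Tnni1 had 2.0 (rank 24), Tnnt1 1.94 (rank 28), Myl3 1.80 (rank 40) and Myl2 1.75 (rank 42), where the median gene had 0.21. The fast members varied less, with 0.74 for Myh2, 0.48 for Myh1, 0.24 for Tnni2, 0.20 for Tnnt3 and 0.19 for Myh4.

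Myh4, the IIB heavy chain gene on chromosome 11 from 67128855 to 67151272 (ENSMUSG00000057003), had 32488 CPM at the lowest, 37453 at the median and 40669 at the highest in AL males. IF males had 31542, 38418 and 43238 CPM of Myh4, AL females 27815, 35290.0 and 45901 CPM, and IF females 30481, 38143 and 41863 CPM. All 4 groups overlapped, and the lowest AL female was mouse 31. Tnnt3, the fast troponin T gene, had 21799, 25216 and 28612 CPM in AL males and 22018, 26307 and 28169 CPM in IF males. In females Tnnt3 was at 16237, 20023 and 25149 CPM under AL and at 18991, 24047 and 26422 CPM under IF. All 8 AL females lay below the AL male median of Tnnt3, and 5 of them below the lowest AL male. Tnni2, the fast troponin I gene, had 12398, 14544 and 15609 CPM in AL males and 11670.0, 14045 and 15837 CPM in IF males. AL females had 7030.2, 8902 and 12652 CPM of Tnni2 and IF females 8816, 10391 and 14115 CPM. For Tnni2, 7 of 8 AL females were below the lowest AL male.

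Myh1 and Myh2, the IIX and IIA heavy chain genes, had groups with a mouse far from the rest. Myh1 had 1539 CPM at the lowest, 1864.5 at the median and 2395 at the highest in AL males, and 821, 1365 and 2405 CPM in IF males. Mouse 9 was the lowest of the IF males, and 6 of the 8 IF males were below the lowest AL male. In AL females Myh1 had 1413, 1797 and 6707 CPM, the highest in mouse 31, whose nearest neighbour had 2689 CPM, and in IF females 1353.5, 2047 and 2507 CPM. Myh2 had 399, 765 and 1505 CPM in AL males and 77.7, 521 and 818 CPM in IF males, the lowest again in mouse 9, with the next at 452 CPM. Myh2 in AL females was at 676, 1076.5 and 2315 CPM and in IF females at 729, 924 and 2313 CPM. Mouse 36, highest of its group in the slow members, was also the highest IF female in Myh2, and the next had 1024.5 CPM.

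Levels of different genes were compared per length, as CPM divided by the gene length in kilobases that the authors' table gives, without a statement of whether that length is the union of exons. Over the 32 mice the medians per kilobase were 15600.0 for Tnnt3, 8233 for Tnni2, 6226 for Myh4, 289.98 for Myh1 and 111 for Myh2. Below them came Myl3 at 98.8, Myl2 at 82.8, Tnnt1 at 61.1, Tnni1 at 22.6 and Myh7 at 11.4 CPM per kilobase. Only between Myh4, with 4624 in its lowest mouse, and Myh1, with 1056 in its highest, did neighbours in this order leave a gap over the 32 mice, and the other neighbours overlapped in range.

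As a share of the 4 heavy chain genes per length, Myh4 took a median of 93.7%, from 79.1% in mouse 31 to 98.1% in mouse 9. Myh1 took a median of 4.26%, from 1.76% in mouse 9 to 18.1% in mouse 31. The IIA gene Myh2 took a median of 1.70%, from 0.148% in mouse 9 to 4.99% in mouse 36. Myh7, the slow gene, took a median of 0.177%, with 0.000678% in mouse 8 and 1.73% in mouse 28 at the ends. In these libraries the IIB transcript was thus the most abundant heavy chain transcript in all 32 mice, and slow transcripts made up under 2% of the total in each.

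The slow and fast members were then compared mouse by mouse. For each mouse the mean log2 ratio of the 5 slow members, and of the 5 fast members, to the geometric mean of the AL mice of the same sex was taken. The slow mean ran from -5.43 in mouse 8 to 2.15 in mouse 5 among AL males and from -3.86 in mouse 9 to 0.43 in mouse 13 among IF males. The slow mean of AL females ran from -2.67 in mouse 32 to 2.24 in mouse 28, and that of IF females from -5.36 in mouse 37 to 2.39 in mouse 36. A mouse that was lowest in its group for Myh7 was lowest for all 5 slow members in each of the 4 groups.

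The fast mean moved within a far narrower range. It ran from -0.32 in mouse 8 to 0.20 in mouse 2 among AL males and from -0.83 in mouse 9 to -0.07 in mouse 12 among IF males. The fast mean of AL females lay between -0.13 and 0.16, and that of IF females between -0.15 and 0.15. Mice 8 and 9 were thus the lowest of their groups in the fast mean too. Among IF males, however, mouse 9 was lowest in Myh1 (821 CPM) and Myh2 (77.7 CPM) but highest in Myh4 (43238 CPM). Its Tnnt3 (26744 CPM) and Tnni2 (15369 CPM) lay above the medians of the IF males. Mouse 37, with the lowest slow mean of the females, had a fast mean of 0.05. Over the 32 mice, as deviations from the group means, the slow and fast means had a Pearson r of 0.51 and a Spearman rho of 0.47. Without mice 8 and 37, whose slow means lay farthest from those of their groups, r was 0.56 (n = 30). Among the 16 males r was 0.81 and among the 16 females 0.04, and both means of a mouse come from the same library.

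**Figure D2:**
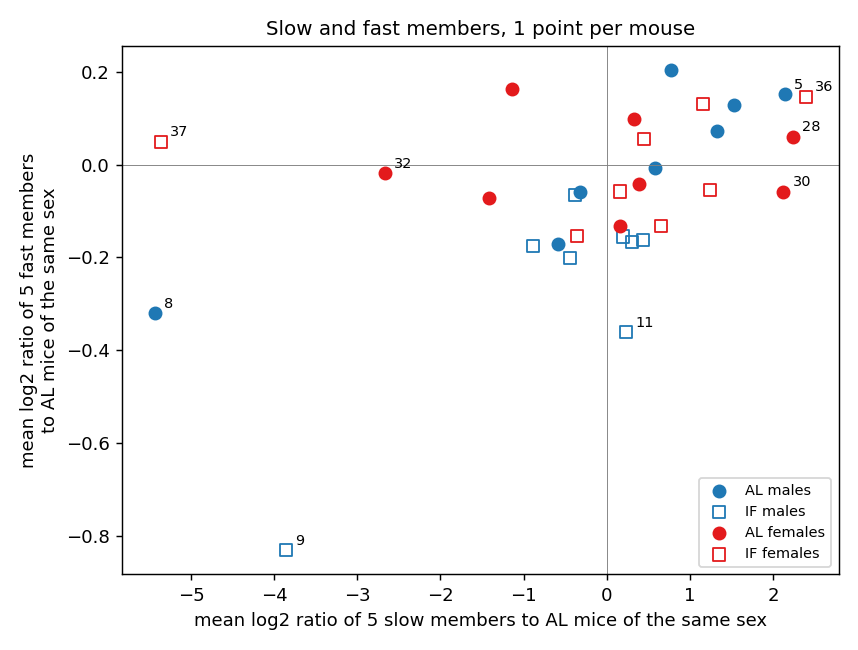
Mean log2 ratio of the 5 slow members (horizontal axis) and of the 5 fast members (vertical axis) to the AL mice of the same sex, 1 point per mouse, filled for AL and open for IF, with the mice that stand apart numbered. The slow mean spans -5.43 to 2.39 while the fast mean spans -0.83 to 0.20.

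Between pairs of members, correlations were taken over the 32 mice on log2 CPM scaled by TMM factors, as deviations from the group means. They thus describe mice within groups. The 10 pairs of slow members had r from 0.96 to 0.99, and within single groups of 8 the lowest r was 0.93. The 25 pairs of a slow and a fast member had r from -0.49 to 0.72 with a median of -0.14. Myh2 was the fast member that followed the slow ones, with r of 0.57 to Myh7 and 0.72 to Myl3, and Myh4 went the other way with r of -0.43 to Myh7. Among fast members Tnnt3 and Tnni2 were alike (r = 0.91), whereas Myh2 and Myh4 had r of -0.52. All these values share the libraries and their depth, and CPM of abundant genes such as Myh4 trade off within a library.

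In male muscle the question was whether the transcripts of slow and fast fibres differed between IF and AL. The fitted log2 fold changes of all 10 members were negative with TMM factors, and none passed the test at an adjusted p of 0.05. In CPM, which TMM factors do not scale, the medians of Myh4 and Tnnt3 were higher in IF males (ratios of 1.03 and 1.04), with 5 and 6 of 8 IF males above the AL median. Of the 15025 genes tested with edgeR after scaling by TMM factors and adjusting by Benjamini-Hochberg, 3465 or 23.1% passed, beside 0 of the 10 members. At an unadjusted p under 0.05 the count was 2 members, Myh1 and Myh2, beside 5309 of the 15025 genes, and with DESeq2 1 member, Myh1, passed. For Myh7 the log2 fold change was -1.06 with a standard error (SE) of 0.75 and an adjusted p of 0.343 by edgeR (n = 8 mice per group). Myl3 had the most negative value, -1.34 (SE 0.71, adjusted p = 0.196), and Tnni1 the least negative of the slow members, -0.85 (SE 0.68, adjusted p = 0.404). Myl2 had -1.26 and Tnnt1 -1.11, and for each slow member 8 of 8 IF males were below the AL median. These counts are not independent, since the slow members go up and down together.

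Of the fast members in males, Myh1 came nearest to the threshold, at -0.45 on the log2 scale (SE 0.16, edgeR adjusted p = 0.0584), and 7 of 8 IF males were below the AL median. It passed with DESeq2 (-0.45, adjusted p = 0.0416), and in edgeR without IF mouse 10 (-0.49, adjusted p = 0.0462) or without IF mouse 12 (-0.57, adjusted p = 0.00755). Myh2 had -0.94 (SE 0.39, adjusted p = 0.0963), with 7 of 8 IF males below the AL median. Myh4 at -0.01, Tnnt3 at -0.07 and Tnni2 at -0.14 differed little, and with library totals in place of TMM factors Myh4 (0.056) and Tnnt3 (0.0022) turned positive, as Myh4 also did without AL mouse 6 (0.0045), AL mouse 7 (0.0060), IF mouse 10 (0.0069) or IF mouse 12 (0.026). The median log2 fold change was -1.11 over the slow members and -0.14 over the fast members, beside 0.01 over all genes tested.

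Mice 8 and 9 carry much of the spread of the slow members in males, and the fit was repeated without both, a choice made after the data were seen. Then Myl3 (-1.35, adjusted p = 0.0333) and Myh2 (-0.88, adjusted p = 0.026) passed by edgeR, and 3819 genes passed in all. Myh7 without these mice had -1.06 with an adjusted p of 0.0807, nearly the same difference as with them. Myl3 also passed when mouse 8 alone was left out (-1.53, adjusted p = 0.046), and no member passed without mouse 9 alone.

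In females the slow members had small positive values that turned with single mice, and the fast members had no common direction. Of 15308 genes tested by edgeR, 1 or 0.00653% passed at an adjusted p of 0.05, against 97 with DESeq2, 38 in 1 fit over the 4 groups and 5 without the filter. The 1 gene was Rn18s-rs5, a ribosomal RNA sequence (1.0, adjusted p = 0.00204), named here after its value was seen. In IF males it had -0.83 (adjusted p = 0.000317) and in the interaction 1.85 (adjusted p = 4.93e-07). The count was 3 without AL mouse 27 (with Gm7336 and Gm5805) and 2 without IF mouse 33 (with Tek). Of the members, 0 of 10 passed, with 1, Tnnt3, under an unadjusted p of 0.05, where 1644 of all genes tested were, and 0 members by DESeq2. Tnnt3 was higher in 7 of 8 IF females than the AL median and its log2 fold change was 0.26 (SE 0.11, adjusted p = 0.40). Myh7 had 0.17 (SE 0.88, adjusted p = 0.966), and without the high IF mouse 36 its sign turned to -0.27. The other slow members turned as well without mouse 36, to -0.35 for Myl2, -0.43 for Myl3, -0.038 for Tnnt1 and -0.18 for Tnni1. Leaving out the low AL mouse 32 turned Myh7 (-0.012), Myl2 (-0.070) and Myl3 (-0.11). Myl2 was also negative without AL mouse 25 (-0.038) or 31 (-0.021), and Myl3 without AL mouse 25 (-0.093), 26 (-0.023), 27 (-0.042) or 31 (-0.089) and with library totals alone (-0.045). Myh1 had -0.26, which turned to 0.17 without AL mouse 31. The median log2 fold change was 0.17 over the slow members and 0.12 over the fast members, beside -0.02 over all genes tested.

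Whether the IF difference itself differed between the sexes was tested as an interaction over all 32 libraries. All 10 members had a positive value, meaning a less negative or more positive IF difference in females, except that Myh4 turned to -0.0051 with library totals alone, a setting that shifted the median of all genes to -0.17. By edgeR 2314 of 16346 genes or 14.2% passed, beside 0 of the 10 members, with 2 members (Tnnt3 and Tnni2) at an unadjusted p under 0.05 beside 4527 of all genes, and 0 members by DESeq2. Tnnt1 had the largest interaction, 1.53 (SE 1.06, adjusted p = 0.372), and Myh7 had 1.25 (SE 1.16, adjusted p = 0.528). Tnnt3 had 0.35 (SE 0.14, adjusted p = 0.0835) and passed without AL mouse 25 (0.41, adjusted p = 0.0314) or without IF mouse 36 (0.39, adjusted p = 0.0447). Without mice 8, 9 and 37, a choice made after the data were seen, 2201 genes and 0 members passed. The male and female comparisons share no mice, while the interaction uses the mice of both.

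AL females and AL males were compared to describe the members without the diet. Tnni2 was lower in females by edgeR (-0.68, SE 0.11, adjusted p = 0.000127, n = 8 mice per group), and so was Tnnt3 (-0.43, SE 0.10, adjusted p = 0.00246). These 2 of the 10 members passed, and 6070 of 15079 genes or 40.3% passed in all, so that the share of members called was below that of all genes. Both genes stayed past the threshold under each alternative fit that was run, leaving out any 1 mouse included. With library totals in place of TMM factors the median of all genes moved to 0.16. None of the slow members passed, though all 5 had positive values, from 0.24 for Myl3 to 1.24 for Myh7 (SE 0.87, adjusted p = 0.275). Myl3 turned negative without AL mouse 28 (-0.061) or AL mouse 30 (-0.13). Myh1 had 0.23, which turned to -0.20 without AL mouse 31 and to -0.20 with DESeq2. This comparison shares its AL mice with both diet comparisons, and the values of Tnni2 under IF were -0.14 in males and 0.19 in females.

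**Figure D3:**
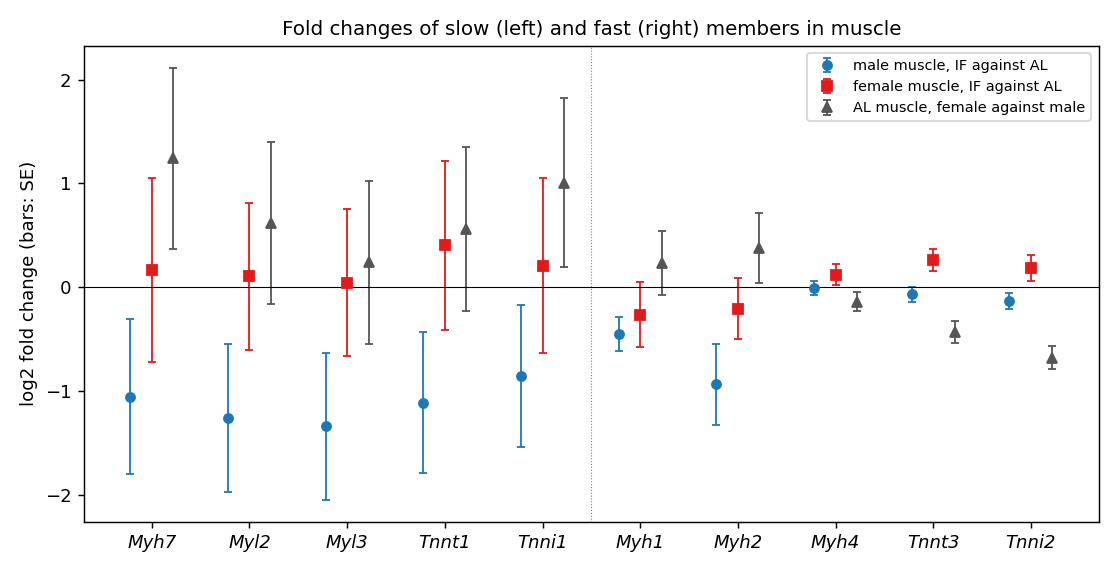
Log2 fold changes of the 10 members with their standard errors as bars, for IF against AL in males and in females and for AL females against AL males. Of these values only Tnnt3 (-0.43) and Tnni2 (-0.68) between the sexes passed the test at an adjusted p of 0.05.

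Genes of the same structures were read beside the members, from lists written with the members. In male muscle 2 of 10 other slow sarcomere and sarcoplasmic reticulum genes passed by edgeR, beside 23.1% of all genes tested, with Casq2, the slow and cardiac calsequestrin, lower in IF males (-0.77, adjusted p = 0.0174) and Pln, the inhibitor of the slow calcium pump, higher (1.01, adjusted p = 0.0147). The list's median was -0.70, and its members Tnnc1 (-0.77), Tpm3 (-0.63) and Atp2a2 (-0.85) did not pass. Of 11 other fast genes 1 passed, the fast regulatory light chain Mylpf, which was lower (-0.29, adjusted p = 0.0128), and the median was -0.05. Pln was low throughout, at a median of 0.789 CPM in AL males and 1.59 CPM in IF males. In females 0 of the 10 slow and 0 of the 11 fast genes passed by edgeR, with 0 and 5 at an unadjusted p under 0.05 (beside 1644 of 15308 genes) and 0 and 0 by DESeq2, and their medians were -0.02 and 0.18.

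Between the sexes under AL, 6 of the 11 other fast genes passed by edgeR, beside 40.3% of all genes tested. Lower in females were Myoz1 (-0.71), Pvalb (-0.45), Myl1 (-0.44), Tpm1 (-0.34) and Mylpf (-0.33), and Atp2a1, the fast calcium pump, was higher (0.25). The lower genes share their direction with Tnnt3 and Tnni2, and the list's median was -0.28 beside 0.03 over all genes tested. Of the 10 other slow genes only Mybpc1, slow myosin binding protein C, passed (0.63, adjusted p = 0.0403). In the interaction 3 of the 11 other fast genes passed as positive, Tpm1 (0.40), Casq1 (0.45) and Myl1 (0.35). Of the 10 other slow genes 1 passed there, Pln as negative (-1.30), beside 14.2% of all genes tested.

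Developmental forms were read as a list of 4 genes, of which 1 passed in IF males by edgeR, beside 23.1% of all genes tested. Actc1, the cardiac actin of developing muscle, rose in IF males (1.30, adjusted p = 0.00501) from a median of 89.1 to 273 CPM, and was higher in AL females than in AL males (2.88, adjusted p = 2.82e-05). Myh8, the perinatal heavy chain, was low, at medians of 1.98 CPM in AL males and 2.14 CPM in IF females, and was also higher in AL females than in AL males (0.44, adjusted p = 0.0388). These 2 of 4 passed between the AL sexes by edgeR and 3 by DESeq2, beside 40.3% of all genes tested by edgeR. In the interaction 1 of the 4 passed by edgeR, Myh8 (2.76, adjusted p = 0.0478), beside 14.2% of all genes tested. By DESeq2 0 of the 4 passed. Myh8 had a mean of 16.5 CPM in IF females (SD 28.2, n = 8), and mouse 34 was the highest of them.

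Among 14 regulators of fibre type, Ppargc1a, the coactivator of mitochondrial and slow fibre genes, rose in IF males (0.70, adjusted p = 0.000422) from a median of 15.4 to 30.1 CPM, while all 5 slow members had negative values. Nfatc1, a calcineurin-dependent factor of slow fibres, also rose (0.24, adjusted p = 0.00634), and 12 of the 14 did not pass, where 23.1% of all genes tested did. In the interaction 1 of the 14 passed by edgeR, Ppargc1a (-0.70, adjusted p = 0.00232), beside 14.2% of all genes tested. Its IF difference in females was -0.02. Between the sexes under AL 5 of the 14 passed by edgeR, beside 40.3% of all genes tested. Among them Esrrg (0.93), Prox1 (1.27) and Ppargc1b (0.56) were higher and Tbx15 (-0.34) was lower in females.

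Metabolic genes of oxidative and glycolytic fibres were taken as lists of 8 each. In IF males 5 of the 8 oxidative genes passed, beside 23.1% of all genes tested, with the oxygen store Mb (-0.90, adjusted p = 0.0166), Cox7a1 (-0.50) and Ckmt2 (-0.33) lower and the lipid uptake genes Lpl (0.80) and Cd36 (0.61) higher. In the interaction 2 of the 8 oxidative genes passed, Lpl (-0.97) and Cd36 (-1.03), beside 14.2% of all genes tested. So did 2 of the 8 glycolytic genes, Pygm (0.29) and Pkm (0.53), with positive values in all 8 glycolytic genes. Between the sexes under AL 2 of the 8 oxidative genes passed, beside 40.3% of all genes tested. These were Ckmt2 (-0.42) and Cox7a1 (-1.07), both lower in females. None of the 8 glycolytic genes passed by edgeR in IF males, with 2 at an unadjusted p under 0.05 (beside 5309 of 15025 genes) and 2 by DESeq2. In AL females 6 of these 8 were lower than in AL males, where 40.3% of all genes passed, with a median of -0.26, among them Pkm (-0.47) and Pygm (-0.22). In females 0 of the 8 oxidative and 0 of the 8 glycolytic genes passed between the diets, with 0 and 7 at an unadjusted p under 0.05 (beside 1644 of 15308 genes) and 0 and 0 by DESeq2.

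The 10 genes most like Myh7 over the 32 mice, by Pearson r on deviations from the group means among 12484 other genes, were Tnnc1 (0.98), Tnni1 (0.98), Tnnt1 (0.98), Myl3 (0.96), Myl2 (0.96), Mhrt (0.95), Tpm3 (0.92), Atp2a2 (0.92), Tpm3-rs7 (0.88) and Adprhl1 (0.84). The 4 other slow members thus ranked 2 to 5. Tnnc1, the troponin C of slow fibres, was at 2.09 CPM in mouse 8 and reached 701 CPM in mouse 36. Without mice 8, 9 and 37 the r of these 10 genes to Myh7 lay between 0.80 for Adprhl1 and 0.97 for Tnni1. Of the regulators, picked after their r was seen, Esrrg (0.66) and Esrrb (0.56) went with Myh7, and Sox6 (-0.51) and Tbx15 (-0.57) against it. Without mice 8, 9 and 37 these r were 0.645, 0.61, -0.535 and -0.31.

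Most like Myh4 were Synm (0.88), Mybpc2 (0.85), Ryr1 (0.84), Dnase1l1 (0.83), Msrb3 (0.82), Mthfd1 (0.81), Prkab2 (0.81), Anapc5 (0.80), Hjv (0.80) and Alkbh5 (0.79). Of the members, Tnnt3 (0.61, rank 200) and Tnni2 (0.51, rank 573) followed Myh4 more loosely. All these r come from the same 32 libraries and share their depth.

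Sequence was examined where it bears on the counts. The coding sequences of Myh1 and Myh2 were 91.0% identical, those of Myh1 and Myh4 90.1% and those of Myh2 and Myh4 88.2%, whereas Myh7 was 77.2 to 77.6% identical to them. Of all runs of 100 bases in the transcript, 7.17% in Myh1, 7.05% in Myh2 and 2.58% in Myh4 also occurred in another of the 4 heavy chain transcripts, and 0 in Myh7. Other heavy chain genes were not compared, so the 0 of Myh7 holds among these 4 genes alone. How reads that fit several genes were counted is not stated, so the counts of Myh1, Myh2 and Myh4 are uncertain. The share of their reads that fit several genes was not measured. A stretch of 60 coding bases is shown because it tells the 4 genes apart, with capitals at the 40 positions where they are not all the same. On GRCm39 it lies at chr14:55224678-55224737 on the minus strand in exon 17 of 41 for Myh7, and on the plus strand at chr11:67072111-67072170 in exon 15 of 39 for Myh2, chr11:67099929-67099988 in exon 15 of 39 for Myh1 and chr11:67139522-67139581 in exon 14 of 38 for Myh4.
Myh7: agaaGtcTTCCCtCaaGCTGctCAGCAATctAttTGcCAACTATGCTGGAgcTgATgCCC
Myh2: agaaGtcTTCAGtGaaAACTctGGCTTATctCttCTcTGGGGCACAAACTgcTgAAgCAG
Myh1: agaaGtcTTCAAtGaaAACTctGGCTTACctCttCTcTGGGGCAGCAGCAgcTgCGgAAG
Myh4: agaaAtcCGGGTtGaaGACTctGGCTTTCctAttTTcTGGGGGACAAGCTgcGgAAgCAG
Myh7 and Myh4 differ at 34 of these 60 bases and Myh1 and Myh2 at 9.

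Exons of several members overlap genes on the other strand, which matters because the strand setting of the counting is not stated, although the labels describe directional libraries. The antisense gene Mhrt covers 24.6% of the exon bases of Myh7, and its level, at most 12.9 CPM in mouse 36, could in part be reads of Myh7. Myhas, antisense to the fast cluster, covers 10.2% of the exon bases of Myh1 and 5.78% of those of Myh4, and had a median of 48.7 CPM in AL males and 55.0 CPM in IF males. Its r to Myh7 was -0.54 and to Myh4 0.42. These antisense genes were picked after their values were seen. For the other members the overlaps were 4.89% or less, and Tnnt1, Tnni1 and Tnni2 had none.

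Promoters were taken from RefSeq on GRCm38.p6 as 300 bases around each gene's start, with entries for 8 of the 10 members, all but Tnnt3 and Tnni2. The promoters of the neighbours Myh2, Myh1 and Myh4 are shown because they share a run of 20 bases, marked by capitals, that 3 of 32851 promoters hold, those of these genes alone. They lie on the plus strand at chr11:67170777-67171076, chr11:67199852-67200151 and chr11:67237562-67237861.
Myh2: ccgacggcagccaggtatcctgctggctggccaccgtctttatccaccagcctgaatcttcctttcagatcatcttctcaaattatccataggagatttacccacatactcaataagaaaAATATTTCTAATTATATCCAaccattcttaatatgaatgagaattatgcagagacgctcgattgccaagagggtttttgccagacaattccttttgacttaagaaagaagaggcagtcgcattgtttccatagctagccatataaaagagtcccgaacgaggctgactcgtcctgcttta
Myh1: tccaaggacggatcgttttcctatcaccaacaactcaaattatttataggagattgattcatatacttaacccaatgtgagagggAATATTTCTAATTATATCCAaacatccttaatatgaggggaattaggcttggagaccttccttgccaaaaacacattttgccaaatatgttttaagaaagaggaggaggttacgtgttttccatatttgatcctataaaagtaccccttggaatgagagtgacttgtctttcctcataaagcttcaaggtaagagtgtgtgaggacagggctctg
Myh4: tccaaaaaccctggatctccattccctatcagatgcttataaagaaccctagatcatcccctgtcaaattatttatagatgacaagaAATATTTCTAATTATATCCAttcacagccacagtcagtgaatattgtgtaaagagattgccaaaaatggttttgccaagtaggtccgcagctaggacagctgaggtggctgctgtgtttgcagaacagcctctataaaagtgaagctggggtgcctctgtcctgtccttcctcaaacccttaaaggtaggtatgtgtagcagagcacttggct
The shared run lies at bases 121 to 140 in Myh2, 86 to 105 in Myh1 and 88 to 107 in Myh4, counted from the 5′ end of the stretch.

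Short motifs were searched on both strands in the same promoters as a description. The 8 members have 11 entries, with 2 each for Myh7, Myl2 and Tnni1, and a member is counted when any of its entries holds the motif, while the percentages are over single promoters. CANNTG was found in 6 of the 8 members and in 72.3% of all 32851 promoters, CATTCC in 4 and in 14.7%, and TATAAA in 5 and in 13.6%. The MEF2 motif was found in 2 members, Myh1 and Myh4, and in 3.19% of all promoters, and the CArG motif in 2 members, Myl3 and Myh4, and in 1.63%. TATAAA can lie inside a MEF2 match. For Myh7 and Tnni1, slow members that went up and down together, 1 promoter each is shown with the matches in capitals, at chr14:54994577-54994876 on the minus strand and chr1:135799171-135799470 on the plus strand.
Myh7: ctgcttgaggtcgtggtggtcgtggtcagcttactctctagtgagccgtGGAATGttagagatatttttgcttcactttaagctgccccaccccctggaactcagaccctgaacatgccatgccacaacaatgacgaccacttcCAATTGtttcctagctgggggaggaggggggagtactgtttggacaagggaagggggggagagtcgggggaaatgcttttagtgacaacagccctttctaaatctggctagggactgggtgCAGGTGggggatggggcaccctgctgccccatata
Tnni1: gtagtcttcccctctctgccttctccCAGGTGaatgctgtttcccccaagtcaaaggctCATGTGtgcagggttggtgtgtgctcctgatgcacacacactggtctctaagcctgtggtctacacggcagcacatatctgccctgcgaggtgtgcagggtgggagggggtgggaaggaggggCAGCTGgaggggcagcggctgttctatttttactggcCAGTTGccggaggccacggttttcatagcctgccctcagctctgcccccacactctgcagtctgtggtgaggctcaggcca
The capitals in Myh7 mark 1 match of CATTCC, read on the other strand, and 2 of CANNTG, and those in Tnni1 mark 4 of CANNTG.

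Markers of other cell types were read beside the members as lists. Adipocyte genes moved with the diet in males, where 4 of the 5 tested of 6 were higher in IF mice by edgeR, Adipoq (2.25), Plin1 (2.20), Cidec (2.52) and Retn (2.20), beside 23.1% of all genes tested. The other gene tested, Lep, had -1.25 and did not pass. Their summed level was 11.5 CPM at the lowest, 40.3 at the median and 142 at the highest in AL males and 48.6, 221 and 768 CPM in IF males, with Cidec the most abundant, and Ucp1 was at 0 at the AL median. Of 6 tendon and fibroblast genes 4 were lower in IF males, Tnmd (-2.07), Fmod (-1.79), Scx (-0.90) and Col1a1 (-0.58), and the sums were 209, 291 and 317 CPM in AL males and 145, 240.2 and 275 CPM in IF males, most of it Dcn. The part of these cells in the differences of the members between the diets was not tested. Of the marker lists, 1 more is not used here, and its sum had the highest r of the lists to the slow mean (0.60, n = 32). Over the 32 mice the r of the other sums to the slow mean ran from -0.20 for skeletal muscle to 0.38 for endothelial genes. These r were taken on deviations from the group means, with the sums on the log2 scale.

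Heart muscle shares Myh7, Myl2 and Myl3 with slow fibres, so heart genes were read too. The summed level of 6 heart genes was 2.69 CPM at the lowest and 11.1 CPM at the highest over the 32 mice, with Tnnt2 the most abundant, and Nppa, Nppb and Myl7 were at or near 0, with medians of 0 in all 4 groups. Of the 2 heart genes tested in males, 0 passed by edgeR, beside 23.1% of all genes tested, and 0 by DESeq2. At an unadjusted p under 0.05 the count was 0, beside 5309 of 15025 genes. Mouse 36 had 9.34 CPM of the heart list beside 901 CPM of Myh7, and mouse 37 had 5.33 CPM beside 0.706.

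Denervation genes, which muscle raises when nerve contact is lost, were read as a list of 6 because fibre type depends on nerve activity. In IF males Gadd45a (1.16) and Musk (0.52) were higher and Ncam1 (-0.49) lower, 3 of 5 tested by edgeR, beside 23.1% of all genes tested. The sum was 24.5, 33.3 and 36.3 CPM in AL males and 39.2, 48.1 and 67.6 CPM in IF males, with Gadd45a the most abundant. Of 5 blood genes 0 passed in males by edgeR, 0 at an unadjusted p under 0.05 (beside 5309 of 15025 genes) and 0 by DESeq2. Of 4 smooth muscle genes and 3 satellite cell genes 0 passed in males by edgeR, with 0 and 2 at an unadjusted p under 0.05 and 0 and 1 by DESeq2, and 1 of 5 endothelial genes (Kdr, -0.54) and 1 of 4 macrophage genes (Csf1r, -0.44) were lower, beside the same share of all genes. Of the skeletal muscle list itself, Ckm (-0.19) and Des (-0.24) were lower and Myog (0.52) higher in IF males.

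Between the diets in females, 0 genes of the marker lists read here passed by edgeR, where 1644 of 15308 genes were at an unadjusted p under 0.05. All 5 endothelial genes were negative (median -0.46), with 5 at an unadjusted p under 0.05 and 1 by DESeq2, and all 4 smooth muscle genes were negative (median -0.73), with 2 and 1. For adipocyte, tendon and fibroblast, blood, macrophage and heart genes 0 were at an unadjusted p under 0.05 and 0 passed by DESeq2, and for skeletal muscle, satellite cell and denervation genes the counts were 2, 1 and 1 at an unadjusted p under 0.05 and 0 by DESeq2. In the interaction, where 14.2% of all genes passed by edgeR, negative values passed for the endothelial genes Pecam1 (-0.52), Tek (-0.69) and Cldn5 (-0.88), the adipocyte genes Adipoq (-2.81), Cidec (-2.66) and Retn (-2.50), the smooth muscle genes Myh11 (-0.86) and Acta2 (-0.94), Chodl (-0.75) of satellite cells and Gadd45a (-1.08) of denervation. Positive values passed for Tnmd (1.57) and Scx (0.99) of tendon and for Acta1 (0.29), Ckm (0.40) and Des (0.40) of skeletal muscle.

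Between the sexes under AL, where 40.3% of all genes passed, 2 of 4 macrophage genes, Csf1r (-0.61) and C1qa (-1.05), were lower in females by edgeR. Of 5 denervation genes tested 3 passed, Gadd45a (0.98) and Chrna1 (0.52) as higher and Musk (-0.96) as lower, and the sum had a median of 54.3 CPM in AL females. Of 6 skeletal muscle genes 5 passed, with Ckm (-0.25) and Des (-0.61) lower and Ttn (0.38), Neb (0.37) and Myog (0.47) higher. In that comparison 1 of 4 smooth muscle genes (Cnn1), 1 of 5 endothelial genes (Cldn5) and 1 of 6 tendon and fibroblast genes (Dcn) passed. By edgeR 0 of 5 adipocyte, 0 of 5 blood, 0 of 3 satellite cell and 0 of 2 heart genes did, with 0, 4, 0 and 1 at an unadjusted p under 0.05 (beside 7378 of 15079 genes) and 0, 3, 0 and 1 by DESeq2. Beyond the r of the summed markers given above, the part of other cell types in the spread of the slow members was not tested.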

How the data were processed

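Gene read counts were deposited by the authors for 96 libraries of mouse liver, muscle and cerebral cortex, as counts per gene of paired-end reads aligned to the mouse genome (GRCm39) with HISAT2 and counted with featureCounts. Gene length, the other quantity in the deposited table, is given in bases without a statement of how it was made. Libraries were grouped by tissue, sex and diet as the labels give them, with 8 mice per group. The 10 genes and the lists of genes read beside them were chosen with earlier results of these data known.

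Levels are CPM, the count divided by the total of the library and multiplied by 1000000, with no further scaling. The spreads within groups and the correlations between single genes used log2 CPM scaled by TMM factors instead. IF was compared with AL in male and in female muscle, the sexes were compared under AL, and the difference of the IF effect between the sexes was tested as an interaction over the 32 muscle libraries. Each comparison used genome-wide edgeR (4.0.16, R 4.3.3) with TMM factors, filterByExpr defaults, robust quasi-likelihood F tests and Benjamini-Hochberg adjustment over all genes tested, with a threshold of 0.05. The genes named in the text are the 10 members, the listed genes that passed, and the 10 genes with the highest Pearson r to Myh7 and to Myh4 (log2 CPM with a prior count of 2, genes with a mean of at least 1 CPM), and any other is said to be chosen after its values were seen. This rule, the comparisons and all alternatives but those said to be added were set before the counts were analysed here, with those earlier results known.

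Alternatives were RLE factors, library totals alone, DESeq2 (1.42.0), filters that kept every gene with 1 count or only genes reaching 10 counts in all libraries, leaving out each mouse in turn, an unadjusted p, a replicate block, 7 male mice per group, 1 fit over the 4 muscle groups, and CPM on TMM-scaled totals. The edgeR fits were tested on simulated data with known changes. Tables and figures were made with Python 3.11.15, pandas 2.3.3, numpy 2.4.6 and matplotlib 3.10.9, and coding sequences were aligned with MAFFT 7.526.

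Muscle libraries held between 28319147 and 49838004 counted reads. In them 3 counts come to at most 0.106 CPM, and below that a gene was taken as not detected. Liver and cortex libraries were used for levels alone, and no difference between diets was tested in them.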

Additional observations from a re-analysis of the deposited data

Results flagged for a closer look

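In groups of 8 mice, a mouse was picked out where its gap to the nearest other mouse was a large share of the range of the group. For normally distributed values chance picks out about 1 in 20 groups, and here 9 of 48 groups tested had such a mouse. The 9 are not independent, since the slow members go up and down together. Single members were tested as CPM and the means as log2 ratios. Their distribution was not checked, so the rate of 1 in 20 may not hold. Mouse 36 was the highest IF female in Myh7 (901 CPM, the next at 421), Myl2 (1053 CPM, the next at 453), Myl3 (1310.3 CPM, the next at 526.4) and Myh2 (2313 CPM, the next at 1024.5). Mouse 31 was the highest AL female in Myh1, at 6707 CPM with the next at 2689 CPM. In the mean log2 ratio of the 5 slow members, mouse 8 stood at -5.43 with the next AL male at -0.58, mouse 9 at -3.86 with the next IF male at -0.88, and mouse 37 at -5.36 with the next IF female at -0.36. In the mean log2 ratio of the 5 fast members, mouse 9 stood at -0.83 with the next IF male at -0.36. Of the single fast members, mouse 9 was the lowest IF male in Myh1 and Myh2 and the highest in Myh4 (43238 CPM). The reasons were not tested.

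In cerebral cortex, which no comparison of the report uses, 6 members were above 3 counts in all 32 of 32 libraries, a floor that comes to at most 0.0961 CPM. The medians were 10.3 CPM for Myh7, 6.47 for Tnni1, 3.73 for Tnnt1, 1.95 for Myh2, 0.980 for Myh1 and 0.521 for Myl2. They were picked out because members of a muscle list were counted in a tissue to which no comparison was applied. The source of these reads was not tested.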

How the results depend on the processing

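Besides the counts of genes, 1180 values of single members were computed under alternative settings. Of these, 1140 kept their direction and their side of the threshold, 13 kept their direction and passed the threshold that the reported value missed, and 27 changed sign. None of the 27 had passed in the reported fit. The 48 mean levels and scores moved by less than 1 SD on TMM-scaled totals.

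With an unadjusted p 5309 genes were below 0.05 in males, 1644 in females and 4527 for the interaction, because no adjustment was made. In females 97 genes passed with DESeq2, 5 with no filter beyond 1 count (Rn18s-rs5, Mylk, Dusp6, Tek and Gm5805) and 38 in 1 fit over the 4 muscle groups, and the cause was not tested. With library totals alone Myh4 (0.056) and Tnnt3 (0.0022) turned positive in males, Myl3 (-0.045) turned negative in females and Myh4 (-0.0051) in the interaction. Under AL, Myh1 was -0.20 between the sexes with DESeq2. The cause was not tested.

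Leaving out each mouse in turn gave from 2933 to 3740 genes in males, from 1 to 3 in females, from 1950 to 2525 for the interaction and from 5519 to 6346 between the sexes. Values that changed sign ran from -0.050 to 0.026 for Myh4 in males. In females they ran from -0.27 to 0.67 for Myh7, -0.35 to 0.49 for Myl2, -0.43 to 0.43 for Myl3, -0.038 to 0.79 for Tnnt1, -0.18 to 0.65 for Tnni1 and -0.35 to 0.17 for Myh1. Between the sexes under AL they ran from -0.13 to 0.53 for Myl3 and from -0.20 to 0.33 for Myh1.

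The replicate block, which pairs mice by replicate number, gave 3140 genes in males, 1 in females, 2378 for the interaction and 6020 between the sexes. Over all genes, paired mice had correlations of their deviations from the group means from -0.126 to 0.107 in males, with 1 of 8 above 0.1, from -0.179 to 0.428 in females, with 4 of 8, and from -0.123 to 0.236 between the AL sexes, with 2 of 8.

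Leaving out mice 8 and 9, or 8, 9 and 37, was added after seeing the data, and gave 3819 genes in males and 2201 for the interaction. All other alternatives were planned. Depth limits low levels: Myh7 had 18 reads in mouse 8. The muscle dissected is not named, and sex and set of mice cannot be told apart.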

Other observations

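In liver, Tnnt1 had a median of 2.21 CPM over 32 libraries, from 0.686 to 4.54 CPM, while each of the other 9 members had a median of at most 0.108 CPM. No 2 of the 32 muscle libraries were alike enough to be copies of each other, as the lowest chi-square per gene over 496 pairs was 16.5, where counting noise alone gives about 1.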
